A study of Mus musculus with 6 samples.

Results

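The genes described here are 4 inhibitors of cyclin-dependent kinases (CDKs): Cdkn1a and Cdkn1c of the Cip/Kip family, and Cdkn2a and Cdkn2b of the INK4 family. They were taken by symbol from the 714 genes of the deposited table. That table was selected on the comparison of the genotypes, with an unadjusted p under 0.05 and at least a 2-fold difference, so the members were chosen by the same values that are described below. Nearest to these thresholds were Cdkn1a, at 2.11-fold, and Cdkn2a, at an unadjusted p of 0.000989 in the authors' deposited table, and genes outside them were not analysed here. Their differences between genotypes are therefore a description, and the p-values, standard errors and calls printed with them are no independent test. The values come from RNA sequencing of 6 libraries of mouse bone marrow-derived macrophages, 3 labelled wild type and 3 labelled Senp8+/-, all of strain C57BL/6. Marrow cells grew for 6 days in GM-CSF at 10 ng/ml, a growth factor for myeloid cells, and every library, controls included, came from cells given beads that carried CD47. RNA was collected 24 h later. The titles call the Senp8+/- libraries KO, while the genotype label gives a heterozygote. The sources used here do not say how the Senp8 allele was made, how many animals gave marrow or whether the libraries came from separate cultures. The authors' p-values therefore measure only how far these libraries spread, and that spread may be technical. Senp8 was not analysed here, so its level does not check the genotype labels.

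Progress through the cell cycle depends on cyclins bound to CDKs, and the inhibitors hold these kinases back. INK4 proteins bind CDK4 and CDK6 and keep the RB protein active, while Cip/Kip proteins bind cyclin-CDK complexes more broadly. Cdkn1a encodes p21, a target of the transcription factor p53 that is also known to be induced as macrophages stop dividing. Cdkn1c encodes p57 and is imprinted, being read mainly from the maternal copy. Cdkn2b encodes p15, a known target of TGF-beta signalling. Cdkn2a encodes both p16, an INK4 protein, and p19Arf, which is read in another frame and stabilises p53. Senp8 encodes a protease for NEDD8, a relative of ubiquitin, which it matures and removes from other proteins. NEDD8 on cullins activates ubiquitin ligases, of which p21 and p57 are known substrates. RNA was measured here, and protein levels were not.

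The regions before the transcription starts are shown because the neighbours Cdkn2a and Cdkn2b both lay higher in Senp8+/- while Cdkn1a lay lower at the deposited scaling. Windows from RefSeq (GRCm38.p6) matched 3 of the 4 symbols and gave 5 starts. Each line holds the 250 bases before a start, 5′ to 3′ on the gene's strand. Capitals mark GC boxes (GGGCGG), the cyclic AMP response element (TGACGTCA) and the p53 response element.
Cdkn2b, chr4:89311033-89311282, minus strand: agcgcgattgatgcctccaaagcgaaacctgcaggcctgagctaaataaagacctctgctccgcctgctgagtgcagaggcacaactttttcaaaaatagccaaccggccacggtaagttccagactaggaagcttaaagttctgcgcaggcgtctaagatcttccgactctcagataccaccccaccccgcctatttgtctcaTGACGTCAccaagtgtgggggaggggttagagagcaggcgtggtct
Cdkn2a, p19Arf start, chr4:89294620-89294869, minus strand: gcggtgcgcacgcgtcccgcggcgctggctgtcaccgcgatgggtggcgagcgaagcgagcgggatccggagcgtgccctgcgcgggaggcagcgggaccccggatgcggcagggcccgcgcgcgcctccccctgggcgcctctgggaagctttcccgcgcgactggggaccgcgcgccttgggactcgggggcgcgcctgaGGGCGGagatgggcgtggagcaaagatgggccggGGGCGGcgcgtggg
Cdkn2a, p16 start, chr4:89282193-89282442, minus strand: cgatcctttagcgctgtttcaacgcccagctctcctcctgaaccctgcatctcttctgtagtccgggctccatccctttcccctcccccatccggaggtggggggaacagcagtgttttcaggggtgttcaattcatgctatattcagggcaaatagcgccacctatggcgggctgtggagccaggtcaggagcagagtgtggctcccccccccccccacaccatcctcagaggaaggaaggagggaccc
Cdkn1a, upstream start, chr17:29090729-29090978, plus strand: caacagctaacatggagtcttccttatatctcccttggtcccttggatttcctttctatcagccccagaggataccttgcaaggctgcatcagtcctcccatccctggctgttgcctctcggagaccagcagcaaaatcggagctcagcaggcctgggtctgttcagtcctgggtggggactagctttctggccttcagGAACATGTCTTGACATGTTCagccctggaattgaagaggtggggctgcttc
Cdkn1a, downstream start, chr17:29093519-29093768, plus strand: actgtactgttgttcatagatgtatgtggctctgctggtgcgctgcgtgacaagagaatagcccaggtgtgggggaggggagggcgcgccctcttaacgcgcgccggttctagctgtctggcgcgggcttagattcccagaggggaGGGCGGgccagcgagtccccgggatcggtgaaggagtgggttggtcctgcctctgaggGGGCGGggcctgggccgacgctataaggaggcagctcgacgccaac

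8 motifs were searched on both strands: the GC box, TGACGTCA, the E-box CACGTG, the AP-1 motif TGANTCA, the SMAD motif GTCTAGAC, the ETS motif CCGGAAGT, the GAS motif TTCNNNGAA and the p53 response element. No motif overlapped another in these 5 windows. The window of the upstream Cdkn1a start held a p53 response element, 32 to 51 bases before the start, counted with at most 1 mismatch and adjacent half-sites. Only 19 of 32841 windows of this length in the RefSeq table (0.0579%) held one. The Cdkn2b window held the cyclic AMP response element once, 39 to 46 bases before the start, as did 1.55% of all windows. GC boxes stood 2 times before the p19Arf start and 2 times before the downstream Cdkn1a start, and 32.7% of all windows held at least 1. The other motifs, held by 6.02% (E-box), 6.75% (AP-1), 0.167% (SMAD), 2.88% (ETS) and 7.02% (GAS) of windows, did not occur in the 5. CpG content differed widely among the starts of the INK4 locus. The p19Arf window held 40 CpG dinucleotides, an observed over expected ratio of 1.08 at the 97.2nd percentile of all windows, while the p16 window held 7, with a ratio of 0.316 at the 44.3rd percentile. The Cdkn2b window lay between them with 12 and a ratio of 0.670. These matches describe the letters, and no binding was measured.

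The Cip/Kip genes fell by 2.11-fold and 2.12-fold and the INK4 genes rose by 2.67-fold and 3.44-fold in Senp8+/- macrophages at the deposited scaling. The Cip/Kip direction turned under a scaling by the median of ratios over the listed genes, which shifted log2 differences upward by a median of 1.21. The listed genes were selected on the contrast and cannot give a scaling. Reads with no size factor gave log2 differences of -1.12 for Cdkn1a and -1.09 for Cdkn1c. All 4 members had an adjusted p under 0.05 in the authors' deposited table, 2 lower and 2 higher. Over the 14694 genes of the authors' correction, 1.65% were listed as lower and 0.361% as higher by this rule, and since the table was selected on this contrast nothing is read from the members' count. Genotypes did not overlap in any of the 4 genes, nor in 89.4% of the listed genes. Levels below are normalised counts (a gene's reads over the size factor of that library), as mean ± SD over 3 libraries unless stated. In bulk RNA, fewer cells of a type and less RNA per cell cannot be told apart.

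Cdkn1a (ENSMUSG00000023067, chromosome 17, 29090976 to 29100727 in GRCm38, plus strand) stood at 1072, 997 and 1055 normalised counts in Senp8+/- replicates 1, 2 and 3. In wild-type replicates 1, 2 and 3 it stood at 2195, 2484 and 1900.3. The Senp8+/- libraries lay close together and well below every wild-type library. The mean fell 2.11-fold, from 2193 ± 292 to 1041 ± 39.0 (adjusted p = 1.73e-05 in the authors' deposited table). limma gave a difference of -1.07 ± 0.25 (SE) in log2(value + 1). Of the members it had the lowest coefficient of variation in each genotype.

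Cdkn1c (ENSMUSG00000037664, chromosome 7, 143458339 to 143461050, minus strand) stood at 1635, 1358 and 1659 in the Senp8+/- libraries and at 3253, 4361 and 2255 in the wild-type libraries. Wild-type replicates 2 and 3 were far apart, and replicate 3 came nearest to the Senp8+/- range. The mean fell 2.12-fold, from 3290 ± 1054 to 1551 ± 167 (adjusted p = 0.0144 in the authors' deposited table), or 1.78-fold without wild-type replicate 2. limma gave -1.04 ± 0.28 (SE). An antisense gene, Gm44732, overlaps 625 exon bases of Cdkn1c in GENCODE M21, and AC167363.2, a gene model of type TEC, overlaps 273 exon bases of Cdkn1a on the other strand. The sources used here do not say whether the libraries kept strand, and reads of these partners could not be told apart.

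Cdkn2b (ENSMUSG00000073802, chromosome 4, 89306299 to 89311039, minus strand) stood at 50.4, 49.3 and 55.7 in the Senp8+/- libraries and at 23.8, 12.7 and 8.74 in the wild-type libraries. The mean rose 3.44-fold, from 15.1 ± 7.80 to 51.8 ± 3.42 (adjusted p = 0.00945 in the authors' deposited table), and limma gave 1.83 ± 0.41 (SE). Wild-type replicate 1 was the highest of its group, and without it the rise came to 4.84-fold. Without wild-type replicate 3, the lowest, the rise came to 2.84-fold. These levels rest on few reads. The Senp8+/- libraries held 49, 53 and 52 reads and the wild-type libraries 24, 12 and 10. The exact 95% Poisson intervals, which cover counting error only, ran from 36.3 to 64.8 for Senp8+/- replicate 1 and from 15.4 to 35.7 for wild-type replicate 1, the nearest pair.

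Cdkn2a (ENSMUSG00000044303, chromosome 4, 89274471 to 89294653, minus strand) stood at 50.4, 52.1 and 58.9 in the Senp8+/- libraries and at 22.8, 26.4 and 11.4 in the wild-type libraries. The mean rose 2.67-fold, from 20.2 ± 7.85 to 53.8 ± 4.50 (adjusted p = 0.0405 in the authors' deposited table), and limma gave 1.45 ± 0.39 (SE). Wild-type replicate 3 was the lowest, and without it the rise came to 2.19-fold. The reads were 49, 56 and 55 in Senp8+/- and 23, 25 and 13 in wild type. Unlike those of Cdkn2b, the exact Poisson intervals of the nearest pair overlapped. They ran from 36.3 to 64.8 for Senp8+/- replicate 1 and from 16.2 to 36.9 for wild-type replicate 2. The intervals of the other pairs of a Senp8+/- and a wild-type library did not overlap. Replicate 3 was thus the lowest wild-type library for all 4 genes, whichever direction they took.

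**Figure D1:**
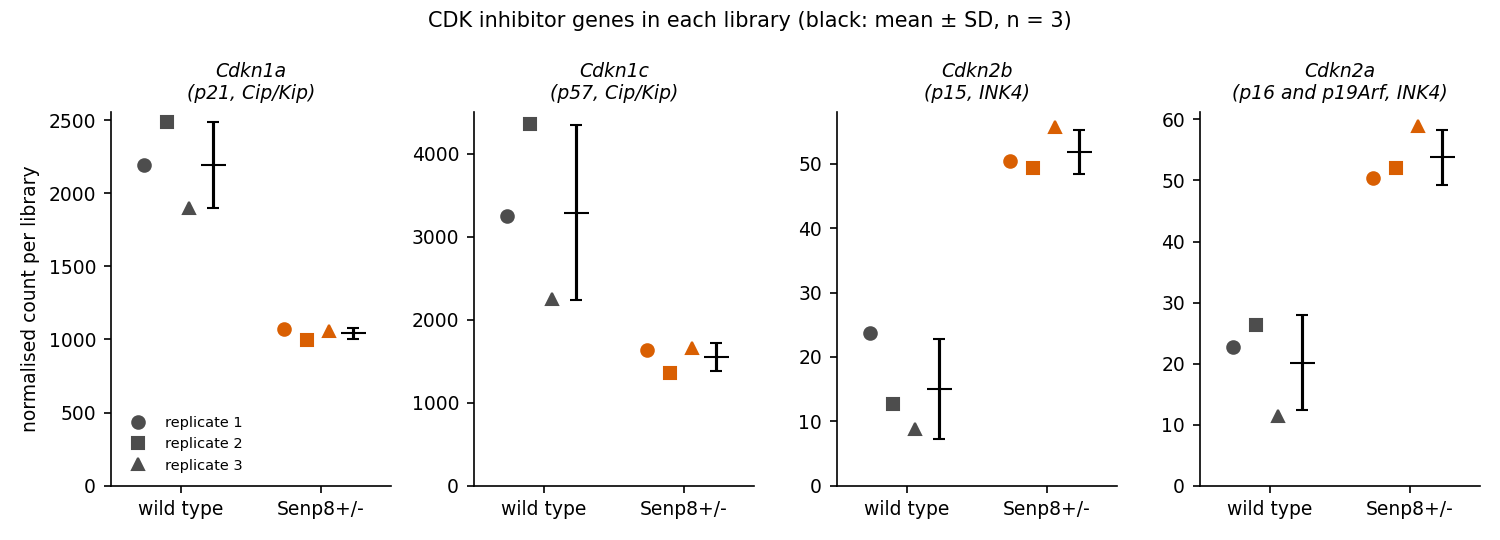
Normalised count of each CDK inhibitor gene (vertical axis, starting at 0) in each library, wild type in grey and Senp8+/- in orange, with the mean ± SD of 3 libraries in black. Cdkn1a and Cdkn1c lay lower and Cdkn2b and Cdkn2a higher in the Senp8+/- libraries at the deposited scaling. Genotypes did not overlap in any panel, nor in 89.4% of the 714 listed genes. The Cip/Kip direction turned under a scaling by the median of ratios over the listed genes.

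The calls of the INK4 and Cip/Kip genes differed among the fits, which differ from the authors' table in both test and correction. With the correction carried over 14694 genes, limma called 0 of the 4 genes. edgeR's quasi-likelihood test on the recovered reads called 1, Cdkn2b. DESeq2 on the same reads called 2, Cdkn1a and Cdkn2b, and gave Cdkn1c an adjusted p of 0.0501. Over all listed genes limma called 176 and edgeR 180, against 295 in the authors' table. All 4 members had an unadjusted p under 0.05 in limma and edgeR. The table was selected on that threshold in the same libraries, so this adds no support. limma without wild-type replicate 3 called 2, Cdkn1a and Cdkn1c. These fits estimated the spread from the listed genes alone, which the authors' test need not have done. Their correction ranked every unlisted gene after the listed ones. This makes an adjusted p too large wherever an unlisted gene had a smaller p. The parts of test and correction in the different calls were not tested.

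The spread within a genotype differed among the members. In Senp8+/- the coefficient of variation was 3.75% for Cdkn1a, 10.8% for Cdkn1c, 8.35% for Cdkn2a and 6.59% for Cdkn2b. Counting error alone gives 13.7% and 14.0% for Cdkn2a and Cdkn2b at their mean reads, so their Senp8+/- libraries varied less than counting error alone gives on average. In wild type the coefficients were larger for each gene, at 13.3%, 32.0%, 38.9% and 51.8% in the same order, against counting errors of 2.11%, 1.73%, 22.2% and 25.5%.

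Per kilobase of gene length, the order of the levels was Cdkn1c, Cdkn1a, Cdkn2a and Cdkn2b in both genotypes. In wild type these were 1613 ± 517, 617 ± 82.2, 17.2 ± 6.70 and 10.8 ± 5.61 normalised counts per kb. In Senp8+/- they were 761 ± 82.0, 293 ± 11.0, 45.9 ± 3.84 and 37.3 ± 2.46. The wild-type ranges of Cdkn2a and Cdkn2b overlapped on this scale. Within each wild-type library Cdkn2a lay above Cdkn2b, at ratios of 1.14, 2.47 and 1.54 in replicates 1, 2 and 3. That order rests on few reads, with 23 of Cdkn2a and 24 of Cdkn2b in replicate 1. The Cip/Kip genes were far more abundant in either genotype. Their summed level per kb was on average 84.3 times that of the INK4 genes over the wild-type libraries and 12.7 times over the Senp8+/- libraries.

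The balance of the families within a library is a ratio that the size factors do not enter. The INK4 genes made up 6.71%, 7.78% and 7.52% of the summed level per kb of the 4 genes in Senp8+/- replicates 1, 2 and 3. They made up 1.62%, 1.10% and 0.964% in the wild-type libraries. The mean share was 7.34% ± 0.56 in Senp8+/- and 1.23% ± 0.35 in wild type, 5.96 times higher. On the log2 scale the INK4 mean minus the Cip/Kip mean was -4.56 ± 0.11 in Senp8+/- and -7.25 ± 0.41 in wild type, a difference of 2.69, or 6.45-fold. This value ran from 2.47 to 2.92 over all settings tried, scaling included. Ratios within each family differed between genotypes by less than the wild-type SD. That of Cdkn2a to Cdkn2b differed by more than the Senp8+/- SD. The ratio of Cdkn1c to Cdkn1a per kb was 2.59 ± 0.19 in Senp8+/- and 2.57 ± 0.50 in wild type, and that of Cdkn2a to Cdkn2b was 1.23 ± 0.04 and 1.72 ± 0.68, with wild-type replicate 2 the highest at 2.47.

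**Figure D2:**
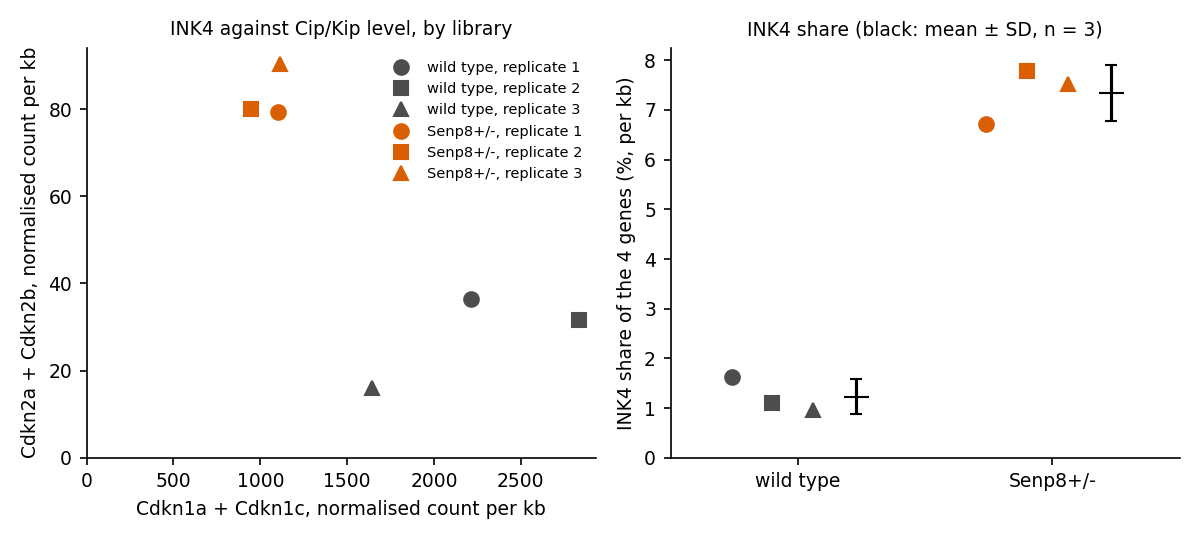
Left, the summed INK4 level (Cdkn2a and Cdkn2b, vertical axis) against the summed Cip/Kip level (Cdkn1a and Cdkn1c, horizontal axis), both in normalised counts per kb, with 1 point per library. Right, the INK4 share of the 4 genes in percent per library with mean ± SD, 7.34% in Senp8+/- and 1.23% in wild type.

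Separate directions for the 2 families rest on the scaling, since most listed genes lay lower in Senp8+/-. With the libraries set to equal medians over the listed genes, which shifted each log2 difference by a median of 0.96, Cdkn1a and Cdkn1c came to -0.052 and -0.025, and Cdkn2a and Cdkn2b to 2.42 and 2.79. Scaling by the median of ratios over the listed genes, a shift of 1.21, put Cdkn1a and Cdkn1c at 0.21 and 0.23. Reads with no size factor gave -1.12 and -1.09 for the Cip/Kip genes and 1.40 and 1.77 for Cdkn2a and Cdkn2b. The listed genes were selected on the contrast and cannot give a scaling, so the deposited one was kept. The INK4 genes lay higher in Senp8+/- under each of these scalings. Both scalings over the listed genes shifted the differences upward, so they could not have turned a gene that was already higher.

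**Figure D3:**
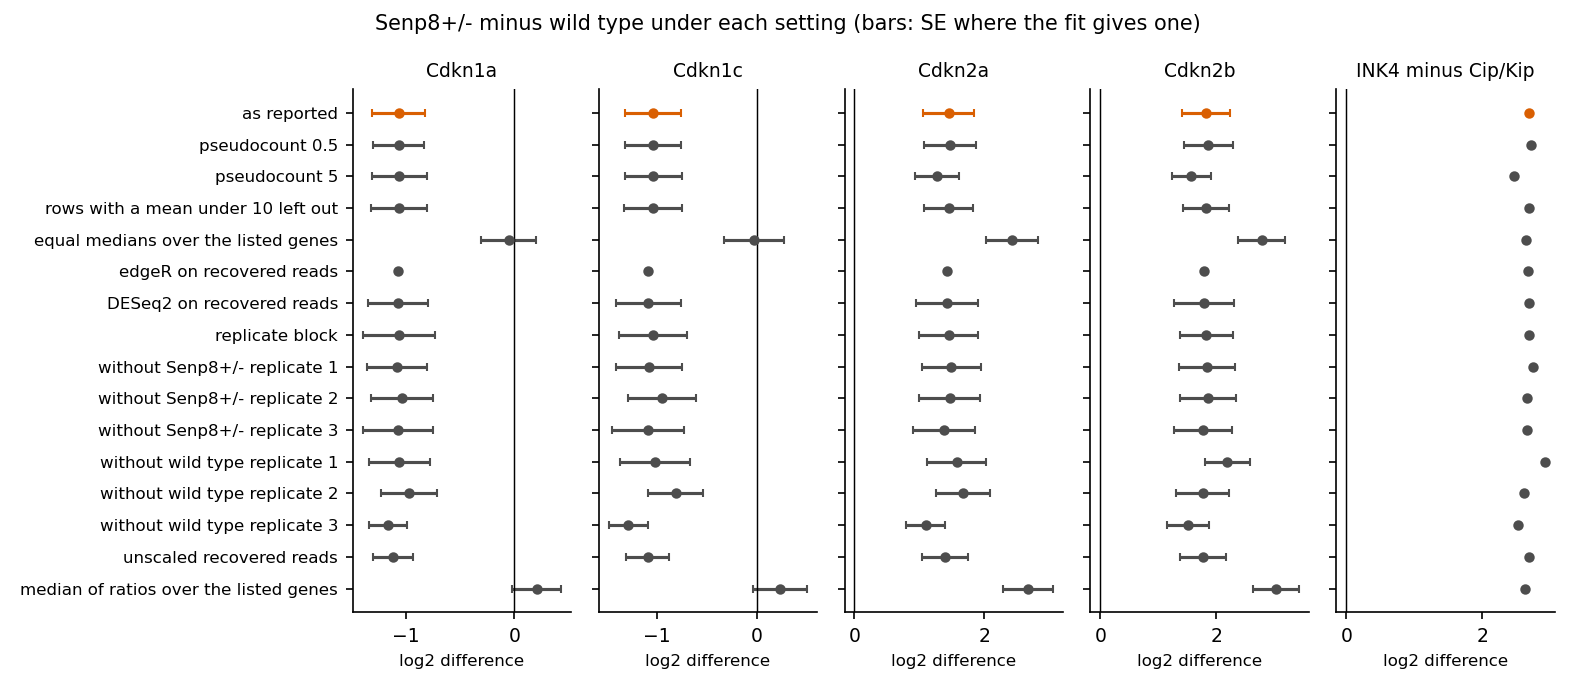
Difference between genotypes, Senp8+/- minus wild type, on the log2 scale (horizontal axes) for each gene and for the INK4 mean minus the Cip/Kip mean, under each setting (rows), with bars for the SE where the fit gives one. The 2 scalings over the listed genes moved the Cip/Kip genes to near 0 or above it, while the INK4 minus Cip/Kip value stayed between 2.47 and 2.92.

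Cdkn2a and Cdkn2b lie next to each other on the minus strand of chromosome 4, with 11646 bases between them. In GENCODE M21 Cdkn2b has 1 transcript. Cdkn2a has 2, whose starts lie 12.5 kb apart: Cdkn2a-202, which encodes p19Arf, and Cdkn2a-201, which encodes p16. They share 575 exon bases, 67.5% of Cdkn2a-201 and 64.2% of Cdkn2a-202, and the deposited count covers the whole gene, so p16 and p19Arf transcripts were not told apart. Reads of Cdkn2a and Cdkn2b are separable by sequence. The longest run shared by Cdkn2a-201 and Cdkn2b-201 is 23 bases, in the second exon of both, and no stretch of 50 bases occurs in both transcripts. It is shown because it bounds how far the neighbours could share reads.
Run shared by Cdkn2a-201 and Cdkn2b-201: cgggaaggcttcctggacacgct

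**Figure D4:**
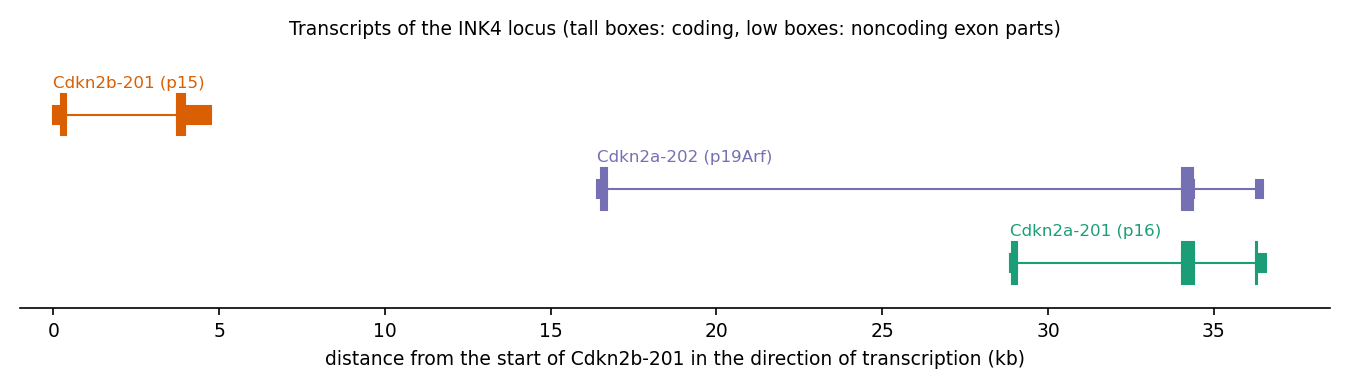
Transcripts of the INK4 locus drawn to scale by distance from the start of Cdkn2b-201 in the direction of transcription (horizontal axis, kb), with coding parts as tall boxes and noncoding exon parts as low boxes. The p19Arf start lies 16.4 kb and the p16 start a further 12.5 kb after the Cdkn2b start, and the p16 and p19Arf transcripts share their second exon.

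None of 6 named genes around the INK4 locus (Mtap, Dmrta1 and 4 interferon genes) was listed, and the next listed gene, Gm13274, lies 549 kb from Cdkn2b. A gene outside the list missed a threshold, went untested or was not used here. Around Cdkn1c, 2 of 17 genes of the imprinted cluster and its flanks were listed, and they took opposite directions. Kcnq1, a potassium channel gene of the cluster 31.3 kb from Cdkn1c, fell 2.48-fold, from 109 ± 7.99 to 44.1 ± 2.74, and came to -0.037 on the log2 scale under the median of ratios. Tnfrsf22, a decoy receptor gene 174 kb away, rose 2.22-fold, from 82.3 ± 23.7 to 183 ± 7.72, but the antisense gene E230032D23Rik spans it and their reads could not be told apart. None of 5 named neighbours of Cdkn1a was listed. The nearest listed gene was Fgd2, an activator of CDC42, 260 kb away, which fell from 83.6 ± 13.3 to 12.5 ± 6.04.

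Among 171 other genes of the cell cycle, p53, TGF-beta and locus lists, 10 were listed and 7 were called in the authors' deposited table, 5 lower and 2 higher. Of all 14694 genes 4.86% were listed and 2.01% were called. The count of called genes was 2 by limma, 4 by edgeR and 5 by DESeq2. Over all listed genes it was 176 by limma and 180 by edgeR. None of 9 cyclins, 12 RB and E2F genes, 26 replication and mitosis genes, 13 regulators of the INK4 locus and 14 genes of ubiquitin ligases for CDK inhibitors was listed. Of the other inhibitors, Cdkn1b, Cdkn2c and Cdkn2d were not listed. Of 8 CDKs and activators 1 was listed, the phosphatase gene Cdc25c, which was not called and averaged 19.8 ± 9.73 against 4.53 ± 4.72 in wild type. Of 19 p53 pathway genes 1 was listed besides Cdkn1a, which the list does not hold. This gene, Phlda3, a p53 target that restrains AKT, fell 2.26-fold, from 204 ± 62.7 to 90.3 ± 11.7, and turned to 0.14 on the log2 scale under the median of ratios. Of 19 growth arrest and senescence genes 1 was listed, the growth arrest gene Gas1, which was not called and averaged 14.1 ± 9.25 against 49.2 ± 23.5 in wild type.

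The list of TGF-beta and BMP signalling and targets had 5 of 22 genes listed. Of these, 3 lay lower, all called, and 2 lay higher, 1 of them called. Over all genes 4.86% were listed and 2.01% were called. Since the lists were chosen with earlier results known, nothing is read from this count. The genes that fell encode a ligand and 2 receptors. Tgfb2 fell 3.73-fold, from 31.5 ± 7.90 to 8.44 ± 1.11. Acvrl1, a type I receptor for BMP9, fell 2.88-fold, from 1218 ± 81.0 to 423 ± 64.7, and its co-receptor gene Eng fell 2.92-fold, from 966 ± 383 to 331 ± 75.8. Under the median of ratios these differences shrank to -0.57 for Tgfb2, -0.26 for Acvrl1 and -0.22 for Eng on the log2 scale. The Id genes are BMP targets. Id1, whose protein keeps helix-loop-helix factors from binding DNA, stood at 17.5, 131 and 186 in the Senp8+/- libraries and at 9.90, 10.6 and 6.12 in wild type. It rose 12.6-fold, or 8.39-fold without Senp8+/- replicate 3. Its relative Id3 was not called (adjusted p = 0.0595 in the authors' deposited table) at 60.7, 420.5 and 508 in Senp8+/- and 118, 75.0 and 36.7 in wild type. Senp8+/- replicate 1 stood apart for both Id genes, and for Id3 it lay inside the wild-type range. In the 4 CDK inhibitor genes that library lay near the other 2 Senp8+/- libraries.

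**Figure D5:**
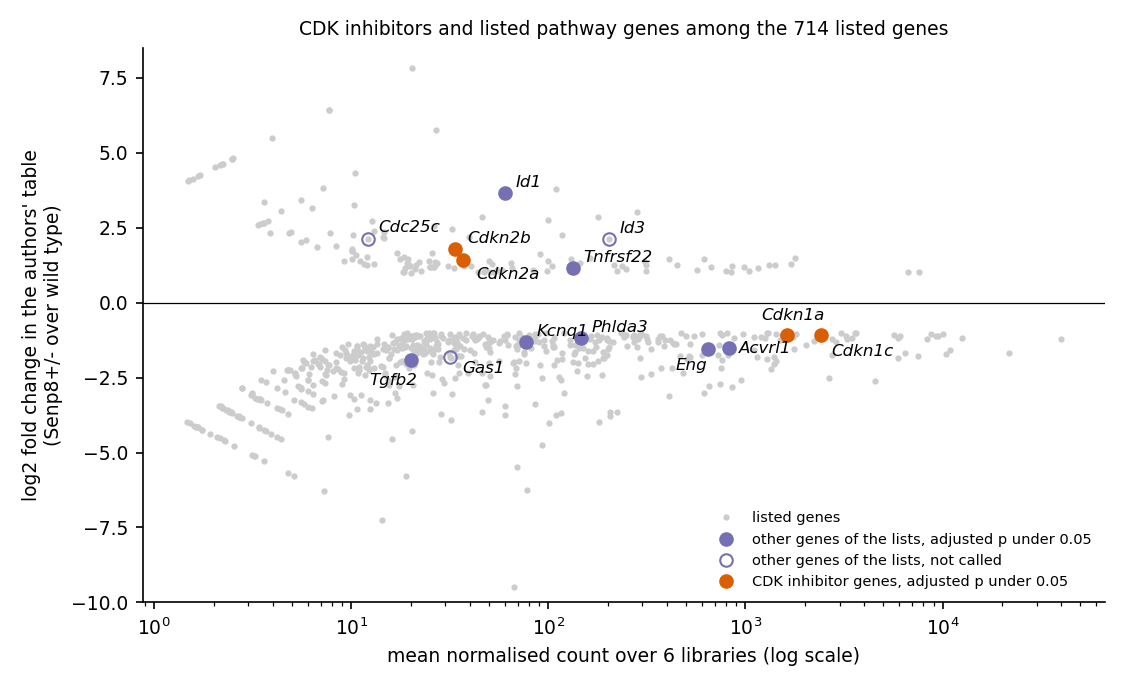
log2 fold change in the authors' deposited table, Senp8+/- over wild type (vertical axis), against the mean normalised count over 6 libraries (horizontal axis, log scale) for the 714 listed genes. Filled coloured symbols had an adjusted p under 0.05, and the CDK inhibitor genes (orange) lay above 0 (Cdkn2a, Cdkn2b) and, at higher mean counts, below 0 (Cdkn1a, Cdkn1c), the latter under the deposited scaling and not under the median of ratios.

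Likeness of profile was measured as the root mean square difference of log2(value + 1) over the 6 libraries after each gene's mean was subtracted, among 325 other listed protein-coding genes of at least median level. The genes most like Cdkn1a were Ak8 at 0.052, Lgals3bp at 0.080 and Fcrl1 at 0.106. Those most like Cdkn1c were Clec4e at 0.050, H2-M3 at 0.117 and P2ry14 at 0.119. Cdkn2a was nearest to Car2 at 0.096, Raet1e at 0.124 and Spryd7 at 0.139. Cdkn2b was nearest to its neighbour Cdkn2a at 0.363, followed by Cxcl14 at 0.409 and Car2 at 0.410, whereas it ranked only 20 in likeness to Cdkn2a. Cdkn1a and Cdkn1c were 0.176 apart, and Cdkn1c ranked 18 in likeness to Cdkn1a. These distances are small for many genes because all were selected on one contrast of 2 genotypes.

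Markers of other cell types were also among the listed genes, and their part in the values of the 4 members was not tested. Over all 14694 genes 4.86% were listed, 1.65% were called lower and 0.361% were called higher. Most listed genes, 569 of 714, lay lower, so a lower direction is not particular to the markers. Of 8 T and NK cell markers 5 were listed, all lower and 4 of them called, with a summed level of 5.58 to 8.57 normalised counts in Senp8+/- and 70.8 to 153 in wild type, and Gzma and Ncr1 had 0 reads in Senp8+/-. Of 8 neutrophil markers 3 were listed, all called lower, at 358 to 561 and 1187 to 1566, with Retnlg at 0 reads in Senp8+/-. Of 6 monocyte and progenitor markers 3 were listed and called lower, at 314 to 485 and 899.9 to 2038. Of 9 stromal and endothelial markers 8 were listed, all lower and 3 of them called, at 397 to 719.5 and 714 to 1797. For dendritic cells 1 of 6 markers was listed and called lower, and for B cells 1 of 4 was listed, also lower, but not called. In the other direction, 1 of 4 mast cell and basophil markers, Tpsab1, was called higher, at 6.18 to 26.0 and 0.874 to 3.96. Of 6 erythroid and megakaryocyte markers, Car2, which lay higher, and Klf1, which lay lower, were listed, 1 of them called, and together came to 531 to 652 and 122 to 316. Of 8 macrophage markers only C1qa and C1qc were listed. Both lay lower, at log2 fold changes of -1.07 and -1.04 in the authors' deposited table, and neither was called. Together they came to 8169 to 11604 in Senp8+/- and 10922 to 24342 in wild type, so both genotypes expressed these markers.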

How the data were processed

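Samples were grouped by their titles. The submitters' processing notes name HISAT2 (2.0.5) and featureCounts (1.5.0-p3). The build, the annotation, the strand setting and the tool of the authors' test were not given in the sources used here. The authors deposited a signal per gene and library, read counts over a size factor (0.933 to 1.14). All values (100%) were whole multiples of 1 step, within 1e-06 of a read, so reads were recovered. The step of wild-type replicate 1, 0.990, is close to 1, but only 3.22% of its values were whole before division by it. The authors' deposited table also gives log2 fold changes, p-values and adjusted p-values, the latter over 14694 genes as computed from both. Listed genes held 205957 to 491156 reads per library, and total depth is unknown. Selection on the contrast inflates the listed differences. Positions equalled GENCODE M21 (GRCm38) for the 4 members. Columns without a sample numbered 0.

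limma 3.58.1 (R 4.3.3) was fitted to log2(value + 1) of all 714 genes, with a mean-variance trend and a term for genotype. The added 1 shrinks the changes of low genes. For Cdkn2a and Cdkn2b limma even so gave 1.45 and 1.83, slightly above the 1.43 and 1.79 of the authors' table. edgeR 4.0.16 (quasi-likelihood) and DESeq2 1.42.0 took the recovered reads and the deposited size factors. Benjamini-Hochberg adjustment ran over 14694 genes, with unlisted genes ranked after the listed ones. The fits were tested on simulated data. A called gene has an adjusted p under 0.05 in the authors' table unless a tool is named. Alternatives were pseudocounts, a filter on low means, scalings, other tools, the replicate block and leaving out each library. The members, lists and tests were chosen with earlier results of these data known. Named genes are the members, up to 6 called genes of each list, the 3 genes most like each member and the nearest listed genes. Listed genes that were not called, the named markers and the 23-base run were added after their values were seen.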

Additional observations from a re-analysis of the deposited data

How the results depend on the processing

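The 4 members and the INK4 minus Cip/Kip value were refitted with pseudocounts of 0.5 and 5, edgeR, DESeq2 and unscaled reads. All 5 kept their direction and moved by less than 1 SD between replicates. Unscaled reads were added after seeing the data. Leaving out rows of mean under 10 could change only the SE, since each difference comes from a gene's own group means. Equal medians moved Cdkn1a to -0.052, Cdkn1c to -0.025, Cdkn2a to 2.42 and Cdkn2b to 2.79. The median of ratios, also added after seeing the data, put Cdkn1a at 0.21 and Cdkn1c at 0.23, both reversed, and Cdkn2a at 2.67 and Cdkn2b at 3.03. By construction both shift every gene. Leaving out each library gave -1.16 to -0.97 for Cdkn1a, -1.29 to -0.81 for Cdkn1c, 1.10 to 1.67 for Cdkn2a, 1.52 to 2.19 for Cdkn2b and 2.53 to 2.92 for the INK4 minus Cip/Kip value.

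The count of called CDK inhibitor genes, 4 in the authors' table, was 0 by limma, 1 by edgeR and 0 to 2 with limma when each library was left out. The count of other called list genes, 7 in the authors' table, was 2 by limma, 4 by edgeR and 0 to 3 with limma when each library was left out. Over all listed genes the count was 295 in the authors' table, 176 by limma and 180 by edgeR. At an unadjusted p under 0.05, limma and edgeR each placed 4 of 4 members and 10 of 10 other listed genes. The table was selected on this threshold in the same libraries, so that outcome was largely set in advance. The cause of the different counts was not tested.

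Replicate numbers occur in both genotypes. Deviations of same-numbered libraries correlated at 0.0074, -0.035 and -0.37 for numbers 1, 2 and 3, and those of differently numbered libraries at -0.30 to 0.37. With 3 libraries per genotype these values cannot tell whether same-numbered libraries had a common origin. With the replicate block limma gave the same differences, -1.07 for Cdkn1a with an SE of 0.34 in place of 0.25, and called 0 members and 2 other list genes. Depth limits Cdkn2a and Cdkn2b most, with 61 and 46 reads in all over the wild-type libraries.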
